A study of Mus musculus with 4 samples.

Results

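The 10 genes described here encode the core and the classical outputs of the hypoxia response, namely the hypoxia-inducible factor (HIF) subunits Hif1a and Arnt, the prolyl hydroxylases Egln1, Egln2 and Egln3, and the target genes Vegfa, Adm, Bnip3, Bnip3l and Ddit4. They were chosen by gene name, and every probe annotated to one of them was taken, which gave 21 of the 39429 probes on the array, for 10 of its 30175 gene names. RNA came from NIH-3T3:Per2-Luc, an established line of mouse embryonic fibroblasts carrying luciferase under the Per2 promoter, so that all 4 samples share this reporter. In 3 samples the cells had received a cOS-pulse (critical oxidative stress), which was 5 mM H2O2 for 10 min, and were taken 4 h, 20 h and 32 h later. The control cells received 0 mM H2O2 with the change of medium and are labelled 4 h, so that the 20 h and 32 h arrays have no control of their own hour. Each condition was measured on 1 one-color Agilent array, all on 1 slide. There are therefore no replicates, no test was run, and the error given with a ratio is that of the scanner software for the spots alone. All comparisons with the control share the same single control array.

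HIF is a pair of proteins in which the oxygen-controlled subunit HIF-1α, the product of Hif1a, joins the constitutive partner ARNT. When oxygen is present, the EGLN enzymes (also called PHD) hydroxylate prolines of HIF-1α, and the VHL ubiquitin ligase then marks it for destruction. HIF activity is thus set mainly at the level of the protein, which an mRNA array does not measure. Stabilized HIF binds short DNA elements called hypoxia response elements (HRE) and induces genes for blood vessel growth, glycolysis, mitophagy and growth arrest, together with Egln1 and Egln3 themselves. The clock factors BMAL1 and CLOCK belong to the same bHLH-PAS protein family and bind the E-box, which holds the HRE core within it.

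The DNA just before the start sites was searched for that core. Sequence further away, where a core may also lie, was not searched. RefSeq promoter windows (build GRCm38.p6, 250 bases before the start site) were found for 9 of the 10 genes, in 11 entries, and Bnip3l had no entry. The HRE core was searched on both strands as ACGTG or GCGTG. It stood in 10 of the 11 entries, against 38.6% of the 32851 promoters searched the same way, and in at least 1 entry of each of the 9 genes. ACGTG alone stood in 16.6% of all promoters. The E-box CACGTG contains ACGTG on both strands, so each E-box counts as 2 cores. It stood in 6.02% of all promoters and in 2 member entries, those of Hif1a and Bnip3. Such short words match often in GC-rich DNA, and the windows were 48.0% to 86.0% GC. A match is a description of the letters and not of binding. Windows of 5 of the genes are printed as examples, 5′ to 3′ on the strand of the gene, with the cores in capitals. For Vegfa only the first entry is printed. Where the core lies on the opposite strand, the capitals read CACGT or CACGC, and where cores overlap the capitals run on.
Bnip3 (chr7:138909507-138909656, reverse strand, bases -150 to -1): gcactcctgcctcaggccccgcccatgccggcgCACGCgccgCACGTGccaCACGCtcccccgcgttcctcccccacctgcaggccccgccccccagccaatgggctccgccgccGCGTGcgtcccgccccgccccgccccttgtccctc
Ddit4 (chr10:59951871-59952020, reverse strand, bases -250 to -101): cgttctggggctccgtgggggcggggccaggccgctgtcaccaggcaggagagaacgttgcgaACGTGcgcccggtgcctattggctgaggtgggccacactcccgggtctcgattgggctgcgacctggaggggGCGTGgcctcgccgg
Adm (chr7:110627507-110627656, forward strand, bases -150 to -1): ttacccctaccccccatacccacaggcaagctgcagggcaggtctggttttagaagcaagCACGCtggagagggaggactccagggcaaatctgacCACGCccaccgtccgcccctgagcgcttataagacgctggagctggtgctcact
Egln1 (chr8:124949255-124949404, reverse strand, bases -150 to -1): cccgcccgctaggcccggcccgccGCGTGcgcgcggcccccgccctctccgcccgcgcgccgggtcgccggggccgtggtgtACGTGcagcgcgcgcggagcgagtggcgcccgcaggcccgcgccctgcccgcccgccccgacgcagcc
Vegfa (chr17:46032378-46032527, reverse strand, bases -150 to -1): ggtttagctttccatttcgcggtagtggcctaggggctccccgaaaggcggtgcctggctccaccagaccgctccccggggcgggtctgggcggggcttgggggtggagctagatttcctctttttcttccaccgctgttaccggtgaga

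**Figure D1:**
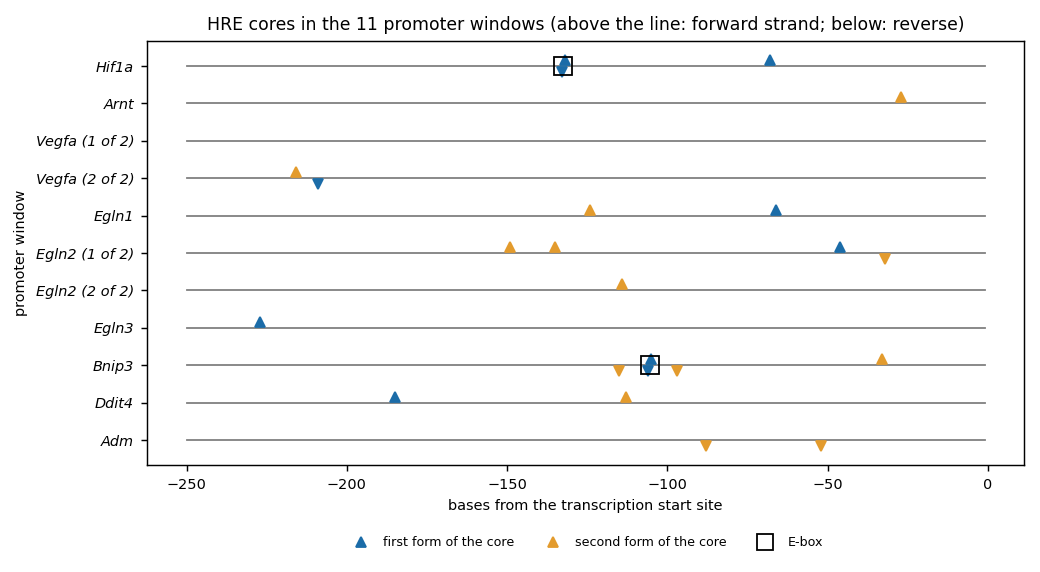
Positions of HRE cores in the 11 promoter windows, in bases from the transcription start site. Triangles above and below a line mark the forward and the reverse strand, the color marks which of the 2 forms of the core was found, and squares mark E-boxes. Bnip3 had 5 cores and the first Vegfa window none.

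The Bnip3 window was the richest, with 5 cores, 2 of them in an E-box at bases -108 to -103 and another on either side within a few bases. Hif1a had 3 cores, of which 2 lay in its E-box at -135 to -130. The first Egln2 entry had 4 cores and its second had 1. Ddit4, Egln1 and Adm had 2 each, and those of Adm were both of the GCGTG form. Arnt and Egln3 had 1 each. The window at the first Vegfa start site (chromosome 17, base 46032377) had none, whereas the window at its second listed start site (base 46025163) had 2.

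Signals are given as scaled log2 signal, the log2 of the background-subtracted intensity minus the 75th percentile of the array, so that 0 is the level of a probe at that percentile. A probe is called well above background where the scanner software set that mark. Of the 21 probes, 17 were well above background on all 4 arrays and 2 on none. Each was printed as 1 spot per array and no member spot was marked as an outlier. Over the whole array 52.7% to 59.1% of the probes were well above background, the most at 4 h, and 125 to 161 spots per array were left out as outliers. Levels of different probes are not compared, since each probe binds its target with its own strength. Probe positions are those of the array annotation (build mm9).

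**Figure D2:**
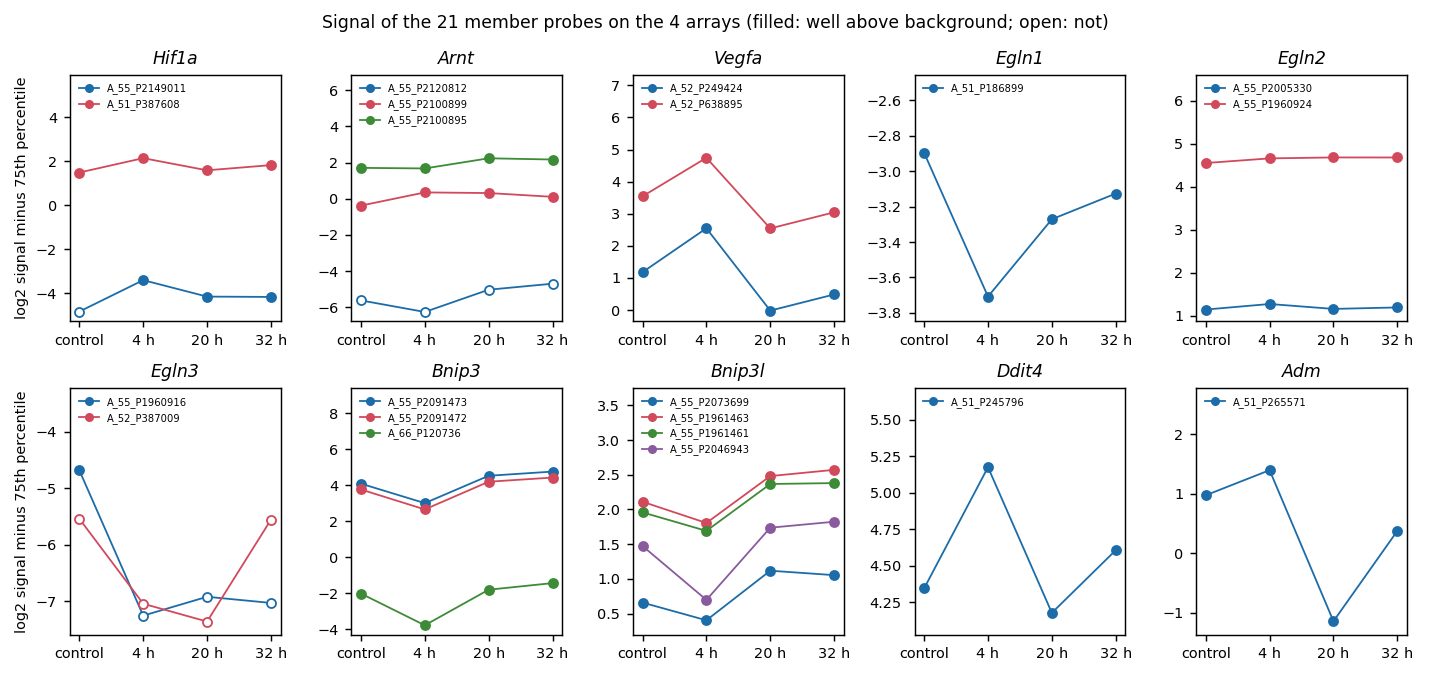
Scaled log2 signal (y axis, own scale in each panel) of the 21 member probes on the 4 arrays (x axis), with 1 line per probe. Filled points were well above background and open points were not. Both Vegfa probes were highest at 4 h and lowest at 20 h, and all 3 Bnip3 probes were lowest at 4 h.

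At 4 h after the cOS-pulse the 2 clearest patterns among the members ran in opposite directions. Both probes of Vegfa, the growth factor that drives vessel sprouting, were 2.58-fold and 2.30-fold higher than in the control. All 3 probes of Bnip3, a mitochondrial receptor for autophagy, were 2.12-fold to 3.40-fold lower. At 20 h Vegfa was below the control by 2.29-fold and 2.001-fold, Adm, the vasodilator peptide adrenomedullin, was 4.32-fold lower, and Bnip3 was above the control by 1.16-fold to 1.35-fold. At 32 h no member probe was 2-fold from the control.

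In numbers, 3 of the 19 member probes that were well above background on at least 1 of the arrays at 4 h and control were at least 2-fold higher (15.8%), beside 11.1% of all 23961 such probes on the array. Another 3 (15.8%) were at least 2-fold lower, beside 8.14% of all. Of the 3 higher probes, the dim one of Hif1a was counted by a bound. These shares are near the background for so few probes, and the median log2 ratio of the 17 members measured on both arrays was -0.03 against 0.17 for all 20392 measured probes. The split between higher and lower depended on the scaling. The 3 higher and 3 lower probes became 1 and 5 with median scaling, 1 and 4 with quantile normalization, 0 and 5 with the spike-in probes and 2 and 5 without scaling, and stayed at 3 and 3 where the 75th percentile was taken over commonly detected probes. In the same order these settings shifted the median 4 h ratio of all probes by -0.36, -0.12, -0.40, -0.28 and -0.12 on the log2 scale. At 20 h the shift exceeded 0.1 with the median (0.11) and without scaling (0.33), and at 32 h and between 20 h and 32 h without scaling (0.18 and 0.15).

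At 20 h no member probe was at least 2-fold higher, beside 1.35% of 22360 probes, and 3 of 19 (15.8%) were at least 2-fold lower, beside 3.3%. The lower probes were both of Vegfa and that of Adm. Without scaling the split was 1 higher and 1 lower. The median member log2 ratio was 0.21, with 12 of the 17 measured probes above 0, against -0.0035 and 49.5% for all measured probes. Of the 12 member probes, 7 were of Bnip3 and Bnip3l and the others of Hif1a, Arnt and Egln2. The measured probes of Vegfa, Egln1, Ddit4 and Adm were below 0. Those of Hif1a, Egln2 and Ddit4 lay within the spot error. At 32 h none of 19 passed 2-fold in either direction, beside 2.08% higher and 2.59% lower of 21851 probes, and the median member log2 ratio was 0.35, with 13 of the 17 measured probes above 0, against -0.0058 and 49.1% for all measured probes. Of these 13 probes, 7 belong to Bnip3 and Bnip3l alone. Directly between 20 h and 32 h, none of 18 member probes was at least 2-fold higher at 20 h, beside 0.88% of 22265, and 1, that of Adm, was at least 2-fold lower (5.56%), beside 1.89%.

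**Figure D3:**
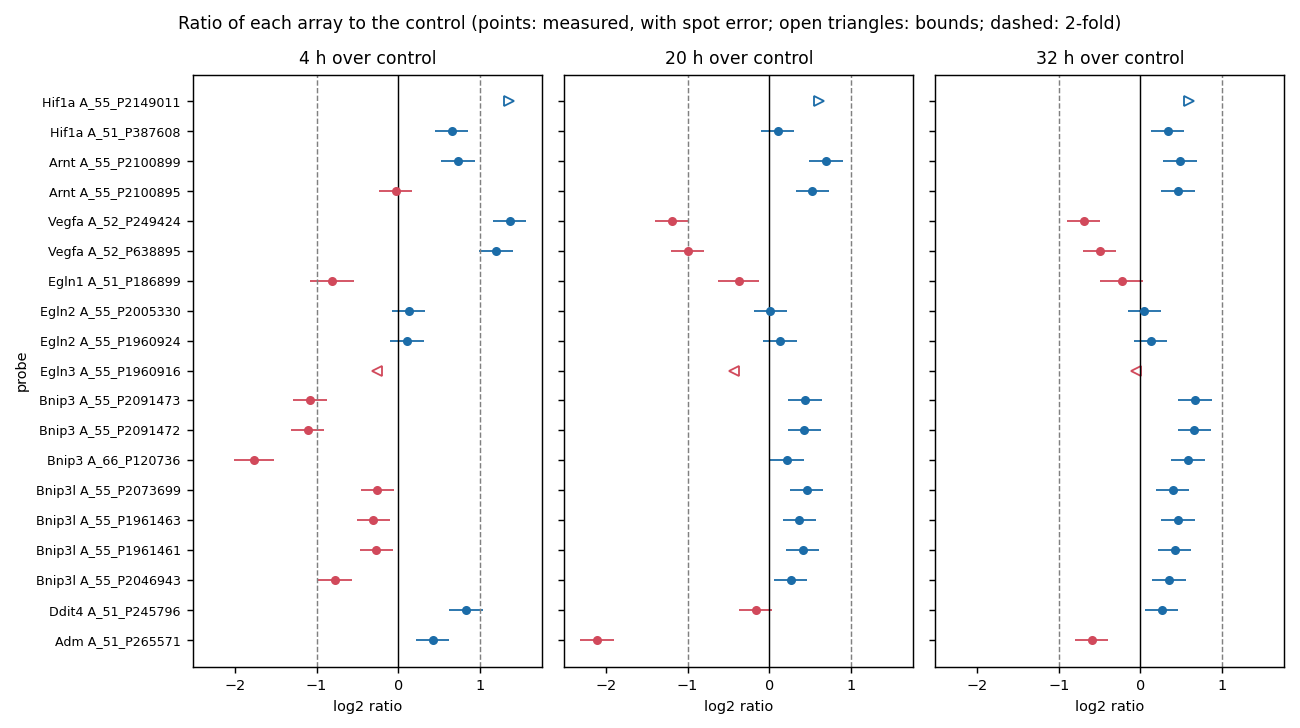
Log2 ratio (x axis) of each cOS array to the control for the 19 member probes that were well above background on at least 1 array. Points carry the spot error, open triangles are bounds that point away from 0, and dashed lines mark 2-fold. Vegfa changed side between 4 h and 20 h, as did Bnip3 in the opposite sense, and the Adm point at 20 h (-2.11) was the furthest from 0.

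Hif1a encodes the regulated subunit. Its main probe (A_51_P387608, chr12:75047269-75047329, forward strand) gave 1.48 in the control, 2.13 at 4 h, 1.58 at 20 h and 1.82 at 32 h. The highest array was thus that of 4 h, at a log2 ratio of 0.65 ± 0.20 (spot error), or 1.57-fold, and the 20 h array lay within the spot error of the control (0.10). With the other 5 scalings the 4 h ratio was between 0.26 and 0.55. A second probe (A_55_P2149011, chr12:75033965-75034024), which the annotation places on a separate cDNA, was not well above background in the control (-4.83) and was at 4 h (-3.40), 20 h (-4.15) and 32 h (-4.17). A bound takes the undetected array at its own signal or, if higher, at the lowest detected signal of that array. Some undetected probes lay above that level, so a bound is not a strict lower limit. The bounds of this probe were 2.56-fold higher at 4 h, and 1.53-fold and 1.51-fold higher at 20 h and 32 h. These signals lay close to the limit of detection. The 4 h bound passed 2-fold in 6 of the 10 settings with a value, and ranged from 0.45 to 1.43 on the log2 scale.

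Arnt encodes the constant partner of HIF-1α. Its probe A_55_P2100899 gave -0.38 in the control, 0.35 at 4 h, 0.31 at 20 h and 0.10 at 32 h, which made every cOS array higher than the control, by log2 ratios of 0.73, 0.70 and 0.49. The probe A_55_P2100895, which lies further 3′ in the same transcript, gave 1.71 in the control, 1.67 at 4 h, 2.23 at 20 h and 2.17 at 32 h. Its ratios were -0.03, 0.53 and 0.46. The probes of Arnt therefore differed by 0.76 at 4 h and by 0.17 and 0.03 at the later times. Another Arnt probe, on a separate Ensembl transcript, stayed near background throughout (-6.26 to -4.70) and was marked on none of the arrays.

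The EGLN enzymes are the oxygen sensors that hydroxylate HIF-1α, and EGLN1 (PHD2) is the one that dominates in most cells. The Egln1 probe gave -2.90 in the control, -3.71 at 4 h, -3.27 at 20 h and -3.13 at 32 h, with the control highest. The log2 ratio at 4 h was -0.81 ± 0.27, or 1.76-fold lower, and it was between -1.21 and -0.94 with the other scalings, past 2-fold in some of them. At 20 h and 32 h the ratios were -0.38 ± 0.25 and -0.23 ± 0.26, the second within its spot error. The 2 Egln2 probes were nearly level. A_55_P1960924 gave 4.55 in the control, 4.66 at 4 h, 4.68 at 20 h and 4.68 at 32 h, and A_55_P2005330 gave 1.15, 1.28, 1.16 and 1.20. Their ratios to the control lay between 0.01 and 0.13, all within the spot error, and at 4 h the sign turned negative in all 5 other scalings for the first probe and in 3 of them for the second. Egln3 was dim. Its probe A_55_P1960916 was well above background in the control (-4.68) and not at 4 h (-7.26), 20 h (-6.92) or 32 h (-7.03). The bounds were 1.20-fold, 1.35-fold and 1.03-fold lower, which are not strict limits. The other Egln3 probe (-7.36 to -5.54) was marked on none of the arrays. Egln1 and Egln3, both known as HIF targets in other settings, thus had their highest signal in the control, although the Egln3 signals were near the limit of detection.

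Vegfa was measured by 2 probes in different parts of the gene. A_52_P249424 (chr17:46162376-46162435, reverse strand) gave 1.18 in the control, 2.55 at 4 h, -0.02 at 20 h and 0.49 at 32 h. A_52_P638895 (chr17:46154387-46154446), nearer the 3′ end, gave 3.54, 4.74, 2.54 and 3.04. In both, the arrays stood in the same order, with 4 h highest, then the control, 32 h and 20 h. The log2 ratios at 4 h were 1.37 ± 0.20 and 1.20 ± 0.20. At 20 h they were -1.197 ± 0.20 and -1.001 ± 0.20, and at 32 h -0.69 and -0.50. Between 20 h and 32 h both probes gave -0.50. Of all probes measured at 4 h, 3.73% and 5.44% had a ratio as high as the first and second Vegfa probe, and at 20 h 1.28% and 2.05% had one as low. The sign at 4 h and 20 h held in every alternative run. The 4 h ratio ranged from 0.97 to 1.37 for the first probe, past 2-fold in 9 of 10 settings, and from 0.80 to 1.20 for the second, past 2-fold in 5 of 10. The 20 h ratio of the second probe was at the threshold itself (-1.001) and passed it in 6 of 10, against 9 of 10 for the first.

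Adm encodes a secreted peptide that widens vessels and is induced by HIF in many cells. Its probe (A_51_P265571, chr7:117773088-117773147, forward strand) gave 0.97 in the control, 1.40 at 4 h, -1.14 at 20 h and 0.38 at 32 h. The 20 h array stood well below the other 3. The log2 ratio was 0.42 ± 0.20 at 4 h, -2.11 ± 0.21 at 20 h and -0.60 ± 0.20 at 32 h. At 20 h, 0.191% of all measured probes had a ratio as low. The 20 h array was also 2.86-fold below the 32 h array (-1.52 ± 0.21), and 0.168% of all measured probes were as low. The 20 h ratio lay between -2.13 and -1.78 and passed 2-fold in 10 of 10 settings, as did the ratio of 20 h to 32 h (-1.52 to -1.33). The 4 h ratio did not stand in the same way, since it was 0.03 with spike-in scaling.

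**Figure D4:**
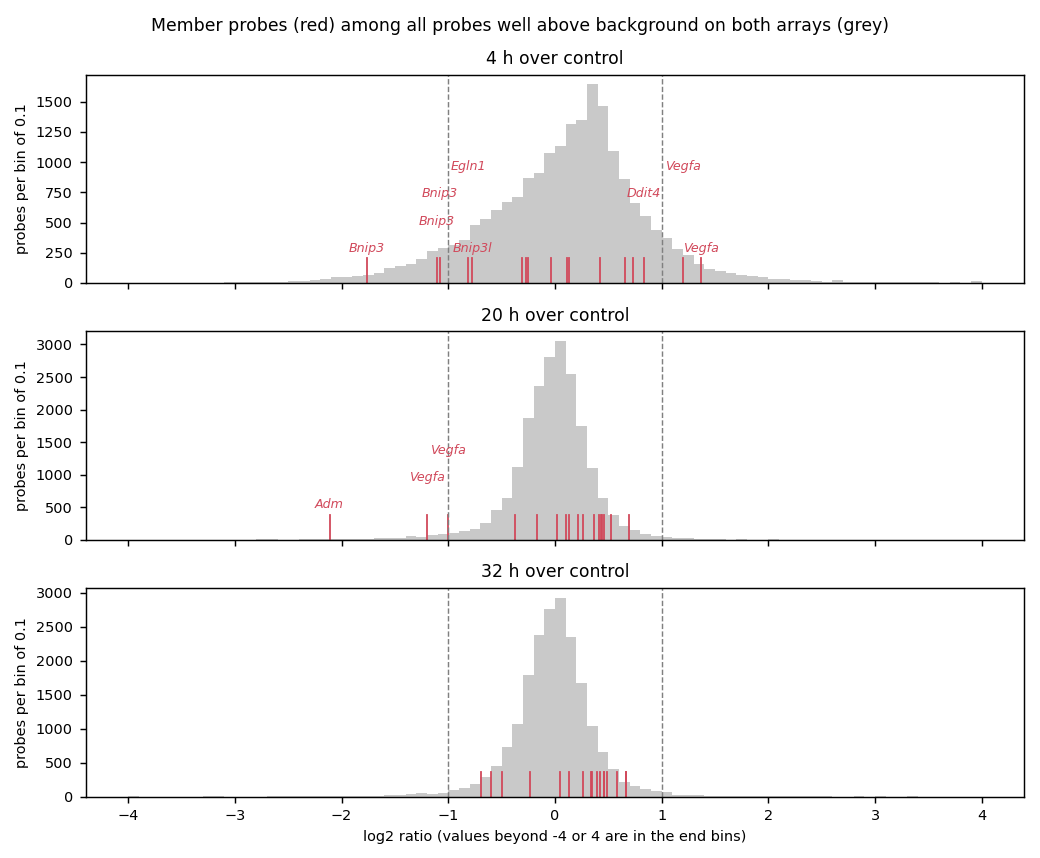
Distribution of the log2 ratios of all probes measured on both arrays (grey, number of probes per bin of 0.1) at 4 h, 20 h and 32 h over the control, with member probes as red marks. Member names are printed for ratios of at least 0.75 in size. The spread of all probes was wider at 4 h than later, and Adm at 20 h lay in the far lower tail.

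Bnip3 and Bnip3l encode related proteins of the outer mitochondrial membrane that recruit the autophagy machinery. The Bnip3 probes bind within a short stretch near the 3′ end of 1 transcript (chr7:146082536-146082819, reverse strand), so they are not independent measures. A_55_P2091473 gave 4.10 in the control, 3.02 at 4 h, 4.54 at 20 h and 4.77 at 32 h. A_55_P2091472 gave 3.77, 2.67, 4.20 and 4.43. A_66_P120736, much dimmer and closest to the 3′ end, gave -2.01, -3.77, -1.80 and -1.43. All 3 stood in the same order, lowest at 4 h and highest at 32 h. Their log2 ratios at 4 h were -1.08 ± 0.20, -1.11 ± 0.20 and -1.76 ± 0.24, past 2-fold in 10 of 10 settings each. Those at 20 h were 0.44, 0.43 and 0.21, and at 32 h 0.67, 0.66 and 0.58, all below 2-fold and beyond the spot error, which at 20 h the dim probe passed barely (0.213 against 0.210). At 4 h 6.78%, 6.41% and 1.55% of all measured probes had a ratio as low, and at 32 h 3.06% to 4.16% had one as high.

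Bnip3l had the same order of 4 h below the control below the later arrays in all 4 of its probes, with smaller differences. A_55_P1961463 gave 2.11 in the control, 1.80 at 4 h, 2.48 at 20 h and 2.57 at 32 h. A_55_P1961461 gave 1.96, 1.69, 2.37 and 2.38. A_55_P2073699 gave 0.66, 0.40, 1.12 and 1.05. Their 4 h log2 ratios were -0.31, -0.27 and -0.26, little beyond the spot error of 0.20. A_55_P2046943, which of the 4 binds furthest 3′ in the transcript, gave 1.47, 0.70, 1.74 and 1.82, and its 4 h ratio of -0.78 ± 0.20 was the lowest. The 4 probes gave 0.26 to 0.46 at 20 h and 0.35 to 0.46 at 32 h, all beyond the spot error. In both genes the probe furthest 3′ had the lowest 4 h ratio. With the other scalings the 4 h ratios of the 4 Bnip3l probes stayed negative, from -1.17 to -0.26.

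Ddit4 (also called REDD1) encodes a stress-induced brake on the growth kinase mTORC1. Its probe (A_51_P245796, chr10:59412486-59412545, reverse strand) gave 4.34 in the control, 5.17 at 4 h, 4.18 at 20 h and 4.61 at 32 h. The 4 h array was highest, at a log2 ratio of 0.83 ± 0.20 or 1.78-fold, between 0.43 and 0.71 with the other scalings. The 20 h ratio of -0.17 lay within the spot error and was positive (0.16) without scaling, and the 32 h ratio was 0.26. The 20 h array was 0.43 ± 0.20 below that of 32 h on the log2 scale. In the main scaling Vegfa, Adm and Ddit4 thus had the highest signal at 4 h and the lowest at 20 h, whereas Bnip3 and Bnip3l were lowest at 4 h. That order depended on the scaling for Ddit4 at 20 h, and for Adm the 4 h ratio fell to 0.03 with spike-in scaling.

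Around the members, 102 genes with 170 probes were grouped into 7 lists by known role, and the same measures were taken. At 4 h, 6 of 139 probes were at least 2-fold higher (4.32%) and 7 lower (5.04%), both below the shares of all probes (11.1% and 8.14%). The median log2 ratio of the 132 measured was 0.20, beside 0.17 for all measured probes. With the other scalings the higher count was 5 or 6 and the lower count 10 to 15. At 20 h 1 of 135 was higher and 5 lower (0.741% and 3.70%, beside 1.35% and 3.3% of all probes). At 32 h 2 and 3 of 133 were higher and lower (1.504% and 2.26%, beside 2.08% and 2.59%). Between 20 h and 32 h, 1 was higher and 1 lower of 135 (0.741% each, beside 0.88% and 1.89%). These later shares were near those of all probes for so few probes.

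**Figure D5:**
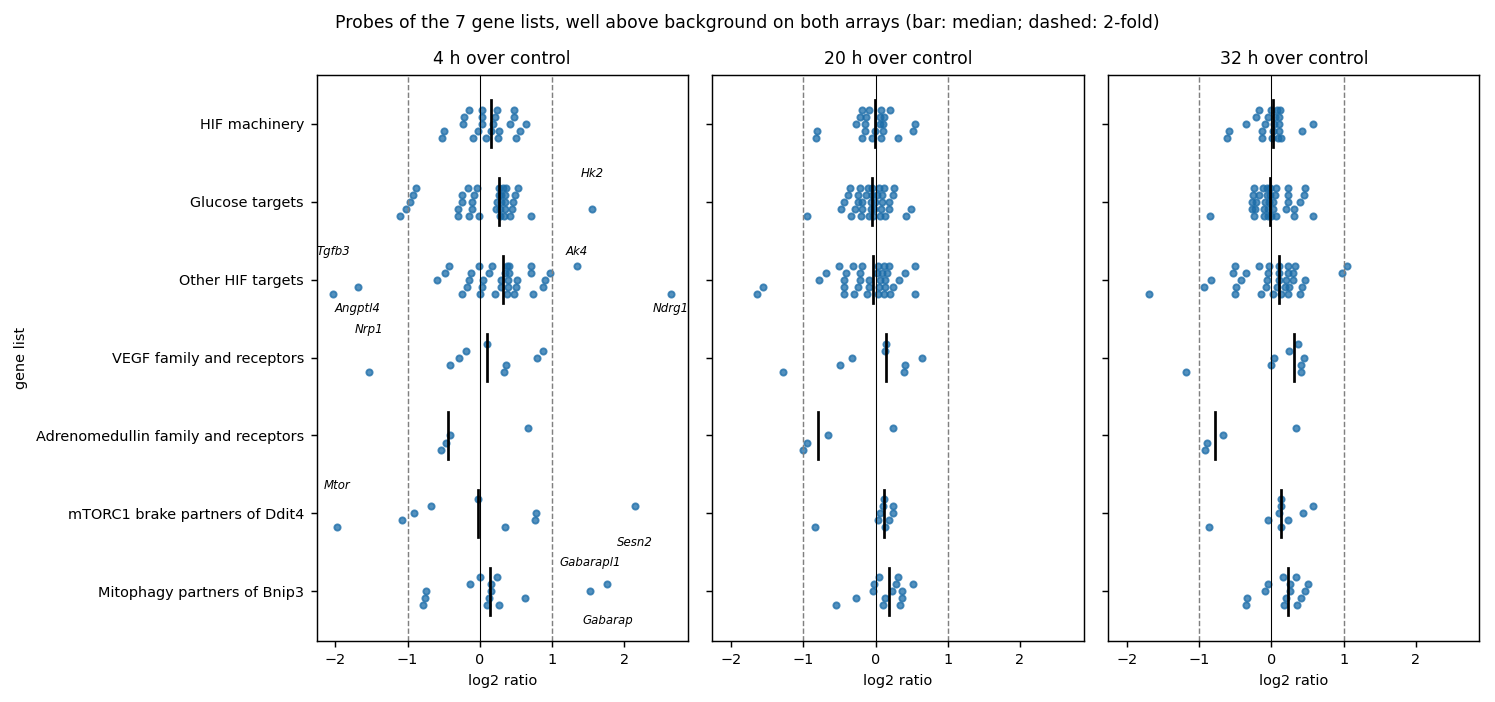
Log2 ratio (x axis) to the control of the probes of 7 gene lists (y axis) measured on both arrays, with bars at the list medians and dashed lines at 2-fold. Gene names are printed at 4 h for ratios beyond 1.3 in size. Ndrg1 at 4 h (2.65) was the highest point and Tgfb3 at 4 h (-2.03) the lowest.

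The HIF machinery (the other HIF subunits, the asparagine hydroxylase Hif1an, Vhl with its ligase partners, and the coactivators) had no probe past 2-fold at 4 h or 32 h among the 23 measured, with medians of 0.16 and 0.02. At 20 h it had a single one, the dim Epas1 probe A_51_P250058. This probe was marked as above background on that array alone and gave a bound of 3.05-fold higher. Epas1 encodes HIF-2α, and its bright probe on the same transcript (A_55_P2077448) gave 1.25 in the control, 1.48 at 4 h, 1.16 at 20 h and 1.26 at 32 h, with a 20 h log2 ratio of -0.09 that lay within the spot error. The remaining Epas1 probe was marked on none of the arrays.

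The list of 22 genes of glucose uptake and use, classical HIF targets, had 39 probes above background at 4 h or in the control. Of these probes, 1 was at least 2-fold higher at 4 h and 2 lower, beside 11.1% and 8.14% of all probes. Hk2, the inducible hexokinase, had a log2 ratio of 1.55 ± 0.21 at 4 h and was below the control later (-0.95 and -0.84). Pfkl, liver phosphofructokinase, was at -1.11 and Gys1, glycogen synthase, at -1.03 by 1 of its probes. The list medians were 0.27 at 4 h, -0.05 at 20 h and -0.03 at 32 h, beside 0.17, -0.0035 and -0.0058 for all measured probes.

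Among 35 other HIF targets, Ndrg1, a stress-responsive growth regulator, was 6.27-fold higher at 4 h (2.65 ± 0.20) and was still above the control at 32 h (0.98). Ak4, a mitochondrial adenylate kinase, was 2.54-fold higher at 4 h (1.35 ± 0.21). Angptl4, an inhibitor of lipoprotein lipase, was 3.23-fold lower at 4 h and 2.95-fold lower at 20 h. Tgfb3, a growth factor, was 4.08-fold lower at 4 h. At 32 h Pim1, a survival kinase, was 2.07-fold higher. Epo, the red cell hormone, had a bound of 2.08-fold higher, which is not a strict limit, by a probe marked on that array alone. At 4 h the named genes of this list thus lay on both sides of the control. The list medians at 4 h, 20 h and 32 h were 0.32, -0.04 and 0.10, beside 0.17, -0.0035 and -0.0058 for all measured probes.

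On the receiving side of Vegfa, the co-receptor gene Nrp1 was lower at all 3 times, with log2 ratios of -1.53, -1.28 and -1.18. Flt1, which encodes a VEGF receptor, was at 0.09 at 4 h, within the spot error. At 20 h and 32 h it was not well above background, and was lower by bounds of 4.14-fold and 3.23-fold. Its 2 other probes were marked on none of the arrays. For adrenomedullin, the receptor partner gene Ramp3 had 2 overlapping probes. At 20 h A_55_P2101340 was 2.002-fold lower (-1.002, and -1.02 to -0.67 with the other scalings) and A_55_P1954835 1.93-fold lower. At 32 h they were at -0.90 and -0.92. The list of the adrenomedullin family and receptors had medians of -0.44, -0.80 and -0.78 over 4 measured probes. These were both Ramp3 probes, that of Ramp2, also lower, and 1 of Ramp1, which was higher (0.66, 0.23 and 0.35). Adm2 and the receptor gene Calcrl had no measured ratio. On the mTORC1 side, Sesn2, which like Ddit4 restrains mTORC1 under stress, was 4.43-fold higher at 4 h and Sesn1 was 2.12-fold lower. The 2 probes of Mtor differed. A_52_P67643, on an Ensembl transcript, was 3.94-fold lower at 4 h (-1.98) and lower at 20 h and 32 h (-0.84 and -0.86), whereas A_51_P282179, on the RefSeq transcript, was 1.59-fold lower at 4 h (-0.67) and within the spot error of the control later (0.10 and 0.13). On the mitophagy side, Gabarapl1, a member of the LC3 family that Bnip3 binds, was 2.87-fold higher at 4 h. Of the 3 probes of the related Gabarap, the dim A_55_P2000718 (-3.26 in the control) was 3.40-fold higher at 4 h. The bright A_51_P295312 and A_55_P2010223 were at 1.11-fold and 1.09-fold, within the spot error, and their sign turned in 4 of the 5 other scalings.

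The fibroblast label was set against markers. All 10 probes of 9 fibroblast markers were well above background on every array, among them Vim, Col1a1 and Fn1. Their median log2 ratios were -0.44, -0.34 and -0.27 at 4 h, 20 h and 32 h, with Pdgfra (-1.55) and Pdgfrb (-1.35) lower at 4 h and Thy1 (-1.39), Col1a1 (-1.06) and Col3a1 (-1.02) lower at 20 h. Epcam, Cdh1, Krt18, Ptprc, Emr1, Tek, Myod1, Myog and Plin1, which define epithelial, immune, endothelial, muscle and fat cells, had no marked probe on any array. Of all 26 probes of the 19 markers of other cell types, 8 were well above background on all 4 arrays and 12 on none. Those marked on every array were 2 probes each of Krt8 and Itgam and 1 each of Pecam1, Kdr, Cd68 and Cd3e. Of these, Itgam A_55_P1977934 gave 4.35 in the control, 4.92 at 4 h, 3.42 at 20 h and 3.47 at 32 h. The summed scaled signal of the 26 probes, most of it from that Itgam probe, was 4.67 on the log2 scale in the control, 5.28 at 4 h, 4.09 at 20 h and 4.12 at 32 h. For the fibroblast markers the sum was 9.86, 9.77, 9.69 and 9.76. Each sum is read across the arrays only, since levels of different probes are not compared. At 4 h the markers of other cell types past 2-fold were all higher, namely Krt8 (log2 ratios of 1.10 and 1.17), Cdh5 (1.87), 1 probe of Cd68 (2.08), and by bounds Adipoq (3.63-fold) and another Itgam probe (2.12-fold). The part of these differences in the member ratios was not tested.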

How the data were processed

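Gene expression in NIH-3T3:Per2-Luc fibroblasts was measured on 4 one-color Agilent arrays, 1 each for the control and for 4 h, 20 h and 32 h after the cOS-pulse. The authors deposited background-subtracted spot intensities from Agilent Feature Extraction 10.7.3.1, and a table of the same intensities on a linear scale, which equals them divided by 1 constant per array. The number of arrays limits the precision, and the paper's SAM test was not run, since there is 1 array per condition.

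From the deposited intensities, log2 signals were averaged over the spots of a probe without outlier flag, and the 75th percentile of 39429 probes was subtracted. A probe was detected where the scanner software marked 50% or more of its spots as well above background. A log2 ratio was taken where both arrays detected the probe, and with 1 array detected a bound was taken, over the dim signal or, if higher, the lowest detected signal of its array. Undetected probes can lie above that lowest signal, so bounds are not strict limits. The threshold was 2-fold, and all counts over the whole array include bounds. Spot errors came from the scanner software.

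The members and the gene lists were chosen with earlier results of these data known. Named genes were every member and, of each list, at most 8 genes past 2-fold against the control. A gene of the lists that is withheld for evaluation is counted but not reported here. Alternatives were 5 scalings, normexp with an offset of 50 (limma 3.58.1, R 4.3.3), 3 other rules for dim probes, outlier spots kept, thresholds of 1.5-fold and 3-fold and the deposited table. Probes were matched to RefSeq promoters (GRCm38.p6) by symbol. Exon and UTR positions of the probes were not analysed here. The main scaling and ratio steps were tested on a copy of the control array in which bright probes were changed by known factors. Changes in dim probes, bounds, the other scalings and the promoter search were not part of that test. Python 3.11.15 with numpy 2.4.6 and pandas 2.3.3 was used.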

Additional observations from a re-analysis of the deposited data

Results flagged for a closer look

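Each of the following probes lay on opposite sides of the control at 2 times, by more than the spot error at both and by at least 2-fold at 1 of them. The differences were not tested, since there is 1 array per time, and each is the log2 ratio at the later time minus that at 4 h, which removes the shared control. From 4 h to 20 h the difference was -2.565 for Vegfa A_52_P249424 (1.367 to -1.197), -2.2 for Vegfa A_52_P638895 (1.199 to -1.001) and -2.534 for Adm (0.422 to -2.112), the last with a 4 h ratio that was close to 0 with spike-in scaling. In the other direction it was 1.519, 1.539 and 1.976 for the Bnip3 probes A_55_P2091473, A_55_P2091472 and A_66_P120736. From 4 h to 32 h it was -2.061 and -1.698 for the same Vegfa probes and 1.752, 1.771 and 2.344 for the same Bnip3 probes. Groups of 1 array allow no search for outlying samples.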

How the results depend on the processing

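The 16 counts of members and list probes and the 75 log2 ratios of the members, bounds included, were recomputed under 13 alternatives where they apply. Of 749 recomputed ratios, 651 stayed within the spot error and 98 moved further. For bounds, which have no spot error, a fixed log2 margin was used in its place. The sign differed in 24, all of Egln1, Egln2, Bnip3l or Ddit4 and most of them between 20 h and 32 h. No ratio past 2-fold changed sign. No paired analysis was possible because each condition has 1 array. The limits are the single array per time, the lack of a control at 20 h and 32 h, and dim probes of Egln3, Arnt and Hif1a, whose ratios are bounds or missing.

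Counts of probes at least 2-fold higher and lower that moved by more than 1.5 times were these. At 4 h the members (3 and 3) were 1 and 5 under median scaling, 0 and 5 under scaling by the spike-in probes, 1 higher with quantile normalization, 1 higher with normexp, and 5 lower without scaling. Without a detection filter, and likewise with the positive and significant flag, 5 were lower. The lists at 4 h (6 and 7) had 15 lower with spike-in scaling and also with the median, 11 with the 75th percentile of probes detected on all arrays and 14 without scaling, and 14 higher without a filter and with the positive and significant flag.

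At 20 h the members (0 and 3) were 1 and 1 without scaling, and 5 were lower without a filter and with the positive and significant flag. The lists (1 and 5) had 3 lower without scaling and with normexp, 2 and 8 without a filter and with that flag, and 0 higher where both arrays had to be above background. At 32 h the members (0 and 0) had 1 lower without a filter and with that flag. The lists (2 and 3) were 0 and 1 with normexp, had 5 lower without a filter and with that flag, and 1 higher with both arrays required. Between 20 h and 32 h the members (0 and 1) had 2 lower without a filter and with that flag. The lists (1 and 1) were 0 and 0 with normexp and with both arrays required, and 2 and 3 without a filter and with that flag.

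A threshold of 1.5-fold gave 6 and 5 members and 22 and 16 list probes at 4 h, 2 members higher and 2 and 13 list probes at 20 h, 3 and 2 members and 12 lower list probes at 32 h, and 3 lower list probes between 20 h and 32 h. A threshold of 3-fold gave 0 and 1 members and 3 and 3 list probes at 4 h, 1 lower member and 2 lower list probes at 20 h, 0 higher list probes at 32 h, and 0 members lower and 0 and 0 list probes between 20 h and 32 h. The counts changed with the threshold by construction. The cause of the other changes was not tested, beyond the shifts of all ratios given with the scalings.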
